A study of Homo sapiens with 6 samples.

Results

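Transcripts of the cytosolic and mitochondrial heat shock proteins were followed in U-937, a cell line from a human myeloid leukemia, after a guide RNA against METTL1. The genes were the rows named HSP90AA1, HSP90AB1, HSPA1A, HSPA1B, HSPA8, HSPH1, DNAJB1, DNAJA1, HSPD1 and HSPE1. Rows for 9 of these 10 were found among the 26810 rows that are not spike-ins, and HSPA1B was not analysed here. With spike-in scaling 8 of the 9 were lower in the METTL1-guide cells, as were 49.3% of all tested genes. By share of the transcripts 5 were lower, beside 26.6% of all. The inducible HSP90 gene HSP90AA1 fell most, to 0.430 times its control mean with spike-in scaling and 0.551 times by share. The mitochondrial chaperonin gene HSPD1 came next. The stress-inducible HSP70 gene HSPA1A was the exception. Its spike-in scaled level did not pass the test, and its share of the transcripts was 1.53 times that of controls. Inducible and constitutive members did not form separate blocks, since HSP90AA1 and HSPA1A, both inducible, stood at opposite ends.

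The sgMETTL1.3 group was a single-cell-derived clone of U-937 cells carrying Cas9 and given the guide of that name by lentivirus, and the control group was the same clone given sgNS. Each group held 3 libraries of poly(A)-selected RNA, made from 300 ng of total RNA with ERCC spike-ins, synthetic RNAs of known amount. Both groups were selected in hygromycin (200 µg/ml) and blasticidin (10 µg/ml), were harvested at day 8 to 10 after transduction, and are labelled as carrying a KMT2A-MLLT10 fusion. METTL1 encodes the enzyme that puts N7-methylguanosine on tRNA. The comparison addressed how its loss changes gene expression. All libraries come from 1 clone and 1 METTL1 guide, and no label says that the replicates were grown apart. The p-values thus cover only how far these libraries differ, and that may be technical variation.

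Heat shock proteins are molecular chaperones. HSP70 binds exposed hydrophobic stretches of unfolded proteins, J proteins (the DNAJ genes) deliver clients and stimulate its ATPase, nucleotide exchange factors such as HSP110 (HSPH1) release them, and HSP90 matures kinases, steroid receptors and other clients handed on from HSP70. In the mitochondrial matrix, the chaperonin HSP60 (HSPD1) and its lid HSP10 (HSPE1) fold imported proteins. The transcription factor HSF1 raises the inducible genes under proteotoxic stress by binding heat shock elements, alternating repeats of the bases nGAAn, whereas HSP90AB1 and HSPA8 are made at high levels in unstressed cells. Cancer cells often depend on abundant chaperones.

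Heat shock element letters lie before starts of both inducible and constitutive members, though none were found for inducible HSPH1. These stretches are shown because the comparison of the 2 classes rests on that distinction. RefSeq (GRCh38.p14) gave 16 start sites for all 10 genes, and the 250 bases before each were searched on both strands. A run of 3 alternating units, GAANNTTCNNGAA or its reverse complement TTCNNGAANNTTC, was present before a start of 4 genes (HSP90AA1, HSP90AB1, HSPA8 and HSPD1), against 0.557% of all 27305 genes with a start in that table. A pair of units (GAANNTTC or TTCNNGAA, which the run also contains) was present for 8 genes, against 14% of all genes. Of the genes with the run, HSP90AA1 is inducible, and HSP90AB1 and HSPA8 are constitutive. No such letters were found in these windows of HSPH1 and HSPE1, which says nothing of elements elsewhere. Only exact matches were counted, so imperfect elements are not covered. The stretches below are 5′ to 3′ on the gene's strand, with the matches in capitals. Each site of 30 bases was centred on the longest match before a start.
HSP90AA1, minus strand, chr14:102087112-102087141: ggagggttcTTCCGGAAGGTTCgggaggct
HSPA8, minus strand, chr11:123062171-123062200: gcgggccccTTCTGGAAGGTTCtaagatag
HSPD1, minus strand, chr2:197500061-197500090: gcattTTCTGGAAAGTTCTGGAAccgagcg
DNAJA1, plus strand, chr9:33025064-33025093: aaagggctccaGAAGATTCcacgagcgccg
The longer stretches of the next 4 genes are the part of the 250 bases that holds a match and no exon of GENCODE release 29.
HSP90AB1, plus strand, chr6:44247693-44247865: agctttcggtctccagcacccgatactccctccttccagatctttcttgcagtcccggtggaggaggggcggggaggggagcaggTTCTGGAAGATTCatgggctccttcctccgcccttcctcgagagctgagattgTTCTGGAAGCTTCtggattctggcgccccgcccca
DNAJB1, minus strand, chr19:14518421-14518647: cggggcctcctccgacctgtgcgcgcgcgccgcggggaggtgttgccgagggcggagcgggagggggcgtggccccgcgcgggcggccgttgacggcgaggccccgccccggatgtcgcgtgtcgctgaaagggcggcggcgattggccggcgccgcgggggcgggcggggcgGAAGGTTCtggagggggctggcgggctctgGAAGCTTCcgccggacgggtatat
HSPA1A, plus strand, chr6:31815293-31815463: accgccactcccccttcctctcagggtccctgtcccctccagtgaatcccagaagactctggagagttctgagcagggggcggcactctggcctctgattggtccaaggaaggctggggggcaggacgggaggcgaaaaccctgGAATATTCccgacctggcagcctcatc
HSPA1B, plus strand, chr6:31827488-31827734: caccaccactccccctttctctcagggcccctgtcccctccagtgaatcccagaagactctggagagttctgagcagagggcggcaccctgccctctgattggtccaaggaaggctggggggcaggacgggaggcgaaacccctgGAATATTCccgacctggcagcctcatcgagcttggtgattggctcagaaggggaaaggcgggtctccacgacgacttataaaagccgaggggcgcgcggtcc
The match of HSPA1A, 106 bases before its start, and that of HSPA1B, 105 bases before its start, have the same letters. HSPD1 and HSPE1 are transcribed in opposite directions. The HSPD1 site precedes the RefSeq start of HSPD1 at position 197499840, which lies 539 bases from that of HSPE1. It is downstream of the other HSPD1 start at 197500274, and it lies in annotated exons of both genes. The same site also precedes the RefSeq start of HSPE1 at 197500379, farther from it than the 250 bases searched.

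Values are given on 2 scales. The deposited values are TPM, transcript levels normalized to each library's total, scaled so that the spike-ins sum to the same amount in every library. Undoing the factor gives plain TPM, a gene's share of the RNA sequenced. The factor was 1.03, 0.832 and 0.949 in the sgMETTL1.3 libraries, against 1.13, 1.23 and 1.21 in the sgNS libraries (exact two-sided permutation p = 0.1, the smallest that 3 against 3 allows). It lowers sgMETTL1.3 values relative to sgNS. Over the 12449 genes that were tested, the median log2 fold change was -0.32 with spike-in scaling, and over 12404 genes as TPM it was 0.00. In bulk RNA, fewer cells of a type and less RNA per cell cannot be told apart. Libraries started from 300 ng of total RNA, and whether spike-ins were added per cell is not stated here. The factor thus cannot be read as RNA per cell. METTL1 itself had spike-in scaled values of 8.28, 5.94 and 7.42 in the sgMETTL1.3 libraries, against 19.7, 22.003 and 20.3 in the sgNS libraries (log2 fold change -1.41, limma adjusted p = 2.41e-06). Of 12 markers of the labelled myeloid identity 11 passed the filter, among them SPI1 and CD33. They summed to between 1041 and 1265 in the sgMETTL1.3 libraries, against 1973 to 2168 in the sgNS libraries, and 8 of them fell, led by LYZ, where 49.3% of all genes fell. As TPM 6 of them fell and 2 rose (ITGAX and CD68), where 26.6% of all genes fell and 24.4% rose. The part of this difference in the results below was not tested. Erythroid and epithelial markers each summed to below 0.4 in every library, and B cell markers to below 14, with HBB, KRT18, KRT19 and MS4A1 at 0. The T and natural killer cell list summed to between 161 and 244 in the sgMETTL1.3 libraries, against 306 to 341 in the sgNS libraries, nearly all of it NKG7, which fell, while CD2 rose on both scales and CD3D and CD3G were at 0. Fibroblast and endothelial markers summed to between 36.0 and 40.3 in the sgMETTL1.3 libraries, against 46.4 to 50.2 in the sgNS libraries, where PECAM1 fell and COL1A1 rose. As TPM the sums of this last list overlapped, and COL1A1 and VWF rose. Read depth is unknown, because the files give no counts.

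Replicate 1 of sgMETTL1.3 differed from the other libraries of its group, more so for members of low and high GC content. As TPM it lay below their mean by 0.46 on the log2 scale for HSPH1, the member of lowest GC content (39.7%), and by 0.16 for DNAJB1 (55.1%). It lay above their mean, by 0.34, only for HSPA1A, whose GC content of 59.3% was the highest of the members. Results that rest on this library are therefore also given without it.

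On the spike-in scale 8 of the 9 measured heat shock proteins fell, none rose, and HSPA1A did not pass the test. Of all genes, 49.3% fell and 6.4% rose. The same 8 members had sgMETTL1.3 libraries entirely below sgNS, as did 53.4% of all genes, and no member had them entirely above, as did 8.66%. As TPM 5 members fell, against 26.6% of all genes, and HSPA1A rose, against 24.4%. Groups did not overlap as TPM for 6 members in the lower direction, against 33.1% of all genes, and for HSPA1A in the higher direction, against 30.2%. HSPA8, DNAJB1 and DNAJA1 did not pass as TPM. Over the 9 members, the log2 fold changes had a median of -0.83 with spike-in scaling, beside -0.32 for all genes, and of -0.48 as TPM, beside 0.00. Together the 9 transcripts made up 0.580, 0.686 and 0.687% of TPM in the sgMETTL1.3 libraries, against 0.870, 0.871 and 0.869% in the sgNS libraries. The control libraries were nearly alike in this share and the sgMETTL1.3 libraries were all below them.

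**Figure D1:**
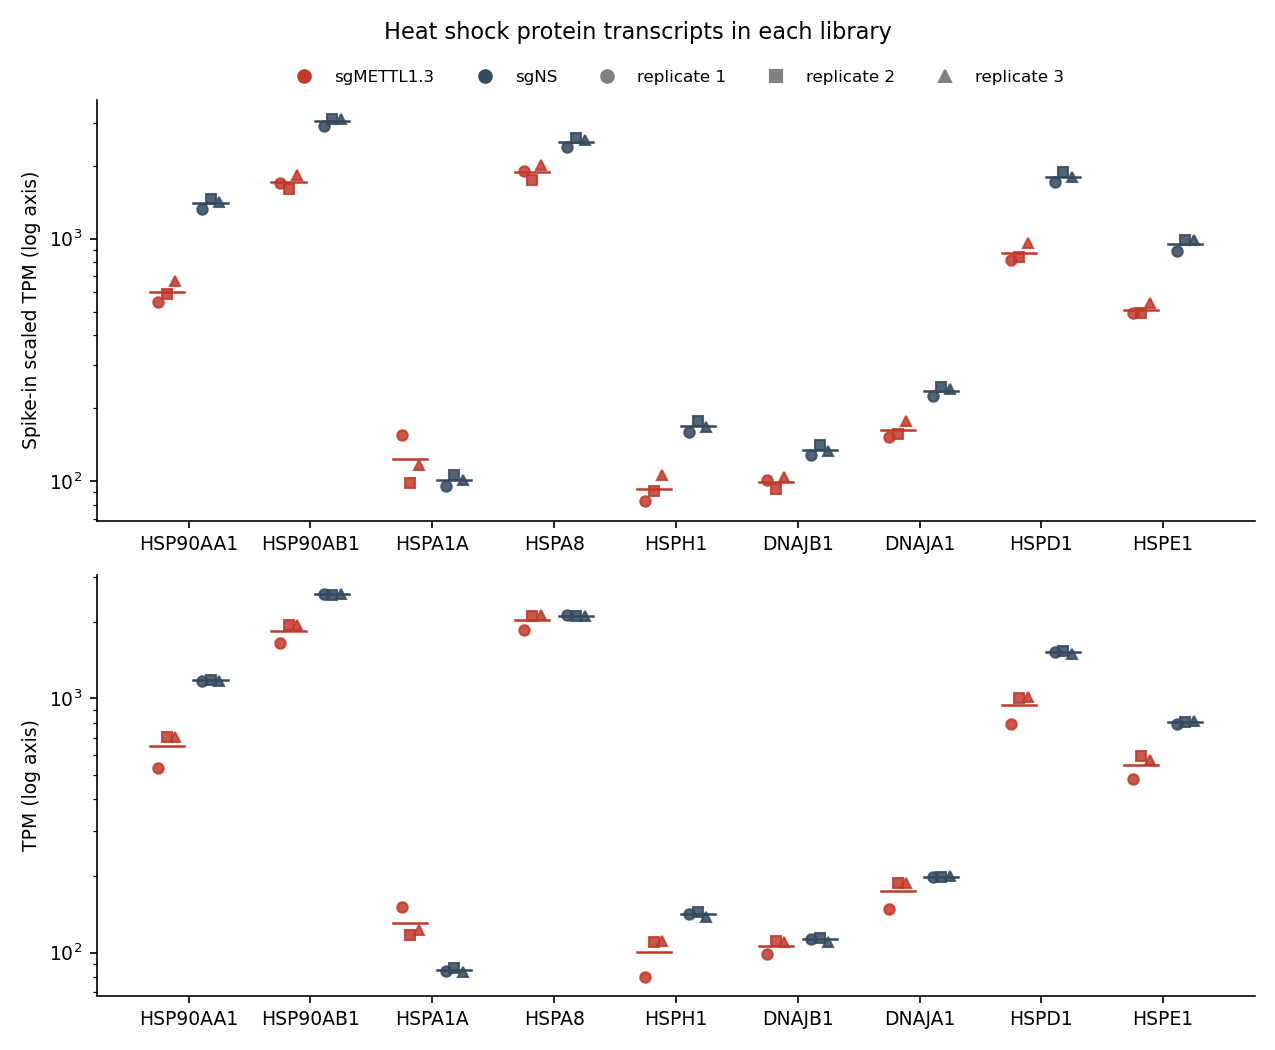
Level of each measured heat shock protein transcript in every library, as spike-in scaled TPM (upper panel) and as TPM (lower panel), on log axes. Points are libraries, with sgMETTL1.3 in red left of sgNS in dark blue, marker shapes give the replicate and bars the group mean. HSPA1A is the member whose sgMETTL1.3 mean lies above its sgNS mean on both scales, and replicate 1 of sgMETTL1.3 is the lowest library for the other 8 as TPM.

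HSP90AA1, the stress-inducible cytosolic HSP90 (chromosome 14, positions 102080738 to 102139699, minus strand, GRCh38), was the member that fell most. It had spike-in scaled values of 547, 588 and 667 in the sgMETTL1.3 libraries, against 1325, 1452 and 1415 in the sgNS libraries. The groups were far apart, and each sgMETTL1.3 library was below every control. Its change of -1.22 on the log2 scale (SE 0.101, limma adjusted p = 1.13e-06) was exceeded downward by 363 of the 12449 genes. As TPM it fell by 0.87 on the log2 scale (limma adjusted p = 0.000753), and by 0.74 without sgMETTL1.3 replicate 1. HSP90AA1 overlaps WDR20 on the other strand, and whether counting used strand is not stated, so reads of the 2 genes could be mixed.

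HSP90AB1, the constitutive paralog (chromosome 6, positions 44246166 to 44253888), was the most abundant member in controls and fell less. Its spike-in scaled values were 1697, 1608 and 1833 in the sgMETTL1.3 libraries, against 2901, 3117 and 3098 in the sgNS libraries. No library of either group lay near the other group. The log2 fold change was -0.83 (SE 0.0945, limma adjusted p = 1.08e-05), and -0.48 as TPM (limma adjusted p = 0.00107). The 2 HSP90 genes share few reads with other loci, since 3.75% of the 75-base words in HSP90AA1 transcripts and 4.68% of those in HSP90AB1 transcripts occur in another gene's transcripts, chiefly pseudogenes of the same family.

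HSPA1A, the stress-inducible cytosolic HSP70 (chromosome 6, positions 31815464 to 31817946), was the one member with a higher mean in the METTL1-guide cells. It had spike-in scaled values of 156, 98.0 and 116 in the sgMETTL1.3 libraries, against 96.0, 106 and 101 in the sgNS libraries. These groups overlapped, and replicate 1 of sgMETTL1.3 was the highest library. The log2 fold change of 0.26 did not pass (95% interval -0.08 to 0.59, limma adjusted p = 0.179). It was 0.08 without that library, 0.11 after a correction for GC content (neither passed), and 0.41 (limma adjusted p = 0.0137, past the threshold) without sgMETTL1.3 replicate 2, the lowest of the group.
As TPM the groups did not overlap. HSPA1A had 152, 118 and 123 TPM in the sgMETTL1.3 libraries, against 85.02, 86.8 and 84.0 TPM in the sgNS libraries. It rose by 0.60 on the log2 scale (SE 0.0977, limma adjusted p = 0.00236), which was 0.49 without replicate 1 and 0.46 after a correction for GC content, past the threshold in both. The part of the GC content in this rise was not tested beyond that correction. HSPA1A and HSPA1B are neighbours and encode nearly the same protein, and 69.3% of the 75-base words of HSPA1A transcripts also occur in HSPA1B, so the value may hold reads of either gene.

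HSPA8, the constitutive HSP70 often called HSC70 (chromosome 11, positions 123057489 to 123063230, minus strand), fell on the spike-in scale and did not pass as TPM. It had spike-in scaled values of 1903, 1746 and 2018 in the sgMETTL1.3 libraries, against 2388, 2589 and 2551 in the sgNS libraries. It fell by 0.41 on the log2 scale (SE 0.0958, limma adjusted p = 0.00254), beside a median of -0.32 for all genes. As TPM HSPA8 had 1856, 2098 and 2126 in the sgMETTL1.3 libraries, against 2115, 2110 and 2113 in the sgNS libraries. Replicate 1 was the lowest library and replicates 2 and 3 were close to the controls. The difference of -0.06 did not pass (95% interval -0.19 to 0.07, limma adjusted p = 0.388). HSPA8 ranked first among the members by mean TPM in sgMETTL1.3 cells, at 2027 ± 148, ahead of HSP90AB1 at 1840 ± 160 (SD, n = 3), and it was the higher of the 2 in each of these libraries. In sgNS cells HSP90AB1 ranked first, at 2558 ± 15.8 TPM, ahead of HSPA8 at 2112 ± 2.43 TPM (SD, n = 3).

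Of the 3 cochaperones among the members, the HSP110 gene fell most, and both J protein genes fell on the spike-in scale only. HSPH1, an exchange factor for HSP70 (chromosome 13, positions 31134974 to 31162388, minus strand), had spike-in scaled values of 82.6, 91.3 and 106 in the sgMETTL1.3 libraries, against 160, 178 and 167 in the sgNS libraries. No sgMETTL1.3 library reached the lowest control. Its log2 fold change was -0.85 (SE 0.110, limma adjusted p = 2.87e-05), and -0.51 as TPM (limma adjusted p = 0.0129), or -0.35 without replicate 1 of sgMETTL1.3.
DNAJB1, the inducible HSP40 that works with HSP70 in stress (chromosome 19, positions 14514770 to 14529770, minus strand), had 101, 92.7 and 104 in the sgMETTL1.3 libraries, against 128, 141 and 133 in the sgNS libraries on the spike-in scale. It fell there by 0.43 on the log2 scale (limma adjusted p = 0.00226). As TPM its groups overlapped, at 98.7, 111 and 110 in the sgMETTL1.3 libraries and 113, 115 and 110 in the sgNS libraries, and the difference of -0.08 did not pass (95% interval -0.23 to 0.07). DNAJB1 overlaps TECR, which runs the other way, with the same limit.
DNAJA1, a J protein of unstressed cells that heat also induces (chromosome 9, positions 33025211 to 33039907), had 152, 157 and 178 in the sgMETTL1.3 libraries, against 224, 244 and 241 in the sgNS libraries on the spike-in scale. It fell there by 0.54 on the log2 scale (limma adjusted p = 0.000457). As TPM its value was -0.20 and did not pass (95% interval -0.42 to 0.03), although the groups did not overlap, and without sgMETTL1.3 replicate 1 it passed at a smaller size, -0.08 (limma adjusted p = 0.00542).

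The mitochondrial chaperonin genes HSPD1 and HSPE1 fell on both scales. HSPD1, which encodes HSP60 (chromosome 2, positions 197486581 to 197516737, minus strand), had spike-in scaled values of 813, 836 and 961 in the sgMETTL1.3 libraries, against 1714, 1881 and 1801 in the sgNS libraries. Its log2 fold change was -1.05 (SE 0.0990, limma adjusted p = 2.62e-06), and -0.70 as TPM (limma adjusted p = 0.00107). HSPE1, which encodes HSP10 (chromosome 2, positions 197499994 to 197503457, plus strand), had 494, 492 and 542 in the sgMETTL1.3 libraries, against 892, 985 and 986 in the sgNS libraries on the same scale. The log2 fold change was -0.91 (SE 0.0953, limma adjusted p = 5.96e-06), and -0.56 as TPM (limma adjusted p = 0.00132). For both genes every sgMETTL1.3 library was below every control. HSPE1 lies inside the annotated span of HSPD1 on the opposite strand, and it shares 5.57% of its 75-base words with the read-through gene HSPE1-MOB4, whose own spike-in scaled values were between 0.589 and 2.18.

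**Figure D2:**
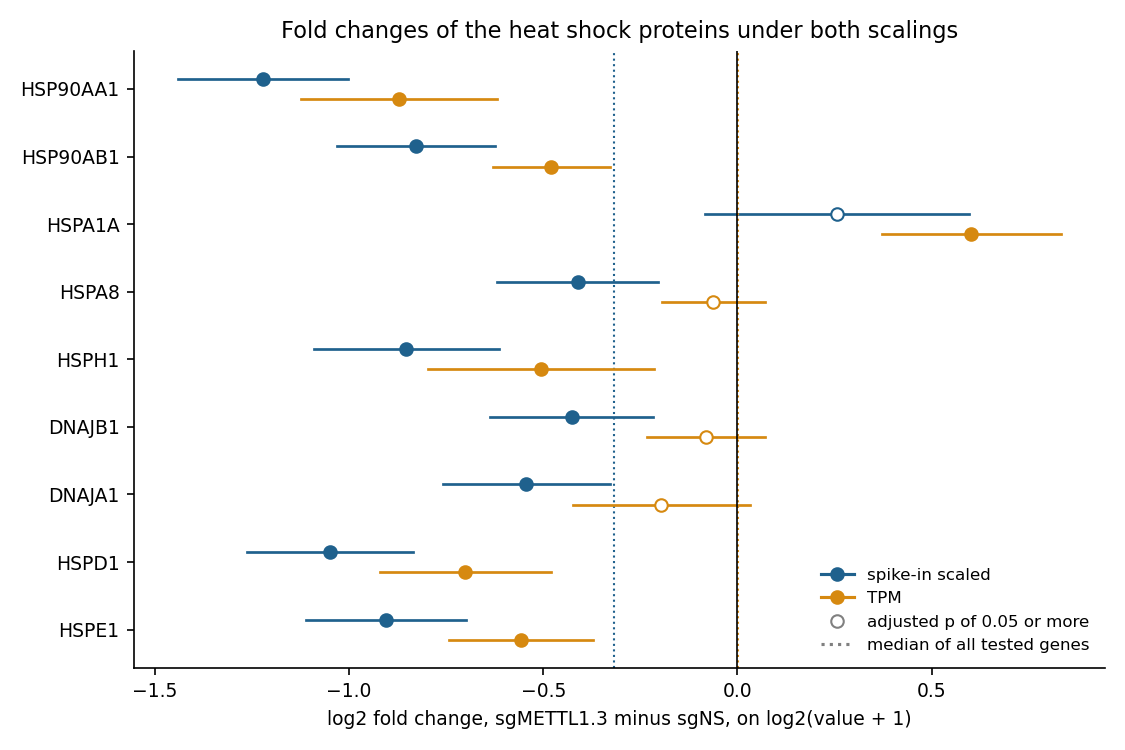
Log2 fold change of each member, sgMETTL1.3 minus sgNS, on log2(value + 1), for spike-in scaled values (blue) and TPM (orange), with 95% limma intervals. Filled points have an adjusted p under 0.05, and dotted lines give the all-gene medians of -0.32 (spike-in) and 0.00 (TPM). HSP90AA1 lies farthest left at -1.22 and -0.87, and HSPA1A lies right of 0 on both scales.

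Setting inducible against constitutive genes by class gave no separation. The 4 measured inducible members (HSP90AA1, HSPA1A, HSPH1 and DNAJB1) had a median log2 fold change of -0.64 on the spike-in scale and ranged from -1.22 to 0.26. The 3 constitutive cytosolic members (HSP90AB1, HSPA8 and DNAJA1) had a median of -0.54 and ranged from -0.83 to -0.41, inside the range of the inducible ones. The mitochondrial pair had -1.05 and -0.91. As TPM the inducible median was -0.29, the constitutive -0.20 and the mitochondrial -0.63. With DNAJA1 counted as inducible, the inducible median became -0.54 and the constitutive one -0.62, so the order of these 2 classes rests on that 1 gene. No test is attached to these medians, because the members were chosen with earlier results known.

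Ratios between relatives within a library do not depend on any scaling factor, and they ran in opposite directions in the HSP90 and HSP70 families. HSP90AA1 over HSP90AB1 was 0.322, 0.366 and 0.364 in the sgMETTL1.3 libraries, against 0.457, 0.466 and 0.457 in the sgNS libraries. The inducible HSP90 was thus the smaller part of the pair in every library, and more so in each METTL1-guide library. HSPA1A over HSPA8 was 0.0817, 0.0562 and 0.0576 in the sgMETTL1.3 libraries, against 0.0402, 0.0411 and 0.0398 in the sgNS libraries. Here each METTL1-guide library lay above every control, with replicate 1 highest. The log2 differences were -0.39 for the HSP90 pair (-0.33 without sgMETTL1.3 replicate 1) and 0.67 for the HSP70 pair (0.50 without it).
DNAJB1 over DNAJA1 was 0.667, 0.592 and 0.586 in the sgMETTL1.3 libraries, against 0.571, 0.576 and 0.553 in the sgNS libraries. The gap between the groups was narrow, and the log2 difference of 0.12 became 0.06 without sgMETTL1.3 replicate 1. After the correction for GC content the order of this pair turned. DNAJB1 then had a log2 fold change of -0.52 and DNAJA1 -0.40 on the spike-in scale, and -0.17 and -0.059 as TPM. The members of the other pairs kept their order under that correction. The corrected ratios were not tested. HSPD1 over HSPE1 was 1.65, 1.70 and 1.77 in the sgMETTL1.3 libraries, against 1.92, 1.91 and 1.83 in the sgNS libraries, a log2 difference of -0.14. All 4 ratios separated the groups, and each had an exact two-sided permutation p of 0.1, also after Benjamini-Hochberg adjustment over the 4, so none can pass 0.05 in this design.

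**Figure D3:**
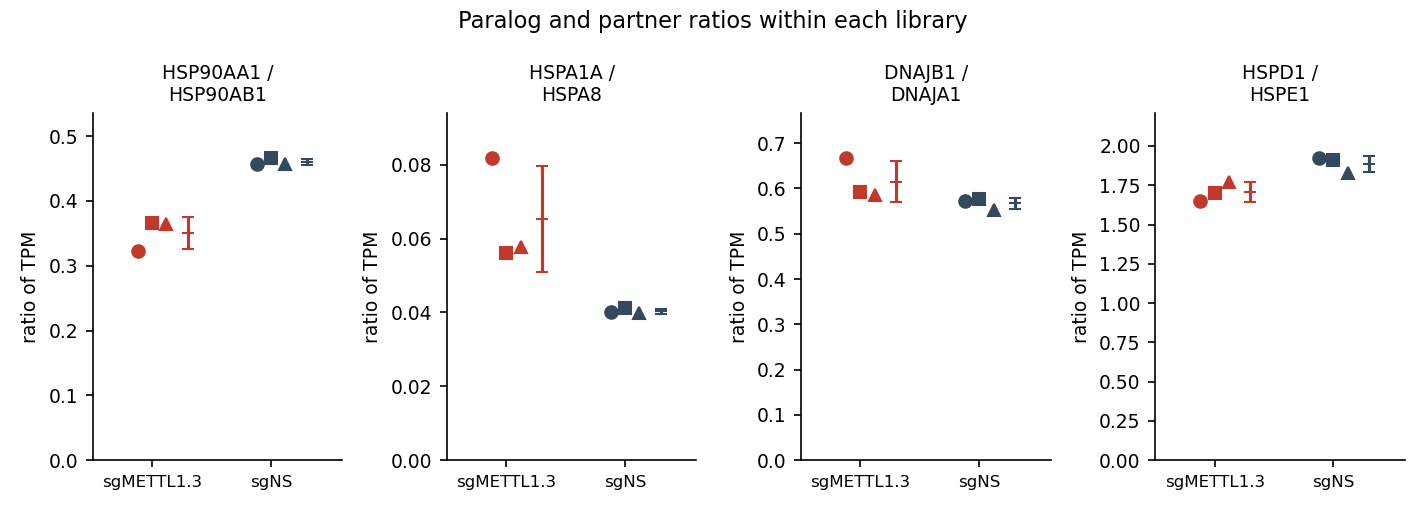
Ratio of 2 members within each library (y axes from 0), for the HSP90 pair, the HSP70 pair, the J protein pair and the mitochondrial pair. Points are libraries, sgMETTL1.3 in red left of sgNS in dark blue, with the mean and SD (n = 3) beside them. The HSP90 ratio averaged 0.351 in sgMETTL1.3 and 0.460 in sgNS, and the HSP70 ratio 0.0652 in sgMETTL1.3 and 0.0404 in sgNS.

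Other genes of the chaperone network were counted on both scales. Of 86 tested genes in 7 lists of chaperones, cofactors and HSF factors other than the members above, 58 fell, 2 rose and 26 did not pass on the spike-in scale, with a median of -0.49 on the log2 scale. As TPM 32 fell, 8 rose and 46 did not pass, with a median of -0.16. Beside the 49.3% of all genes that fell on the spike-in scale, 67.4% of this network did, and 37.2% as TPM beside 26.6%. The 2 and 8 of 86 that rose stand beside 6.4% of all genes on the spike-in scale and 24.4% as TPM. The difference from all genes was not tested.

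Among other HSP70 and HSP110 genes, 5 of 6 tested fell on the spike-in scale (49.3% of all genes did) and 3 as TPM (26.6%). HSPA4L and HSPA4, both of the HSP110 family like HSPH1, had log2 fold changes of -1.21 and -0.75 (limma adjusted p = 5.24e-06 and 3.71e-05), and HSPA14, a ribosome-associated HSP70, -0.76. HSP90 cochaperones had 14 of 20 tested genes lower and 1 higher on the spike-in scale, and 9 lower and 5 higher as TPM. The 5 higher as TPM are near the all-gene share of 24.4%. On the spike-in scale 6.4% of all genes were higher. FKBP5, a cochaperone of steroid receptors, had spike-in scaled values of 46.7, 45.4 and 50.1 in the sgMETTL1.3 libraries, against 115, 123 and 119 in the sgNS libraries. It fell by 1.31 on the log2 scale (limma adjusted p = 5.03e-07). Its relative FKBP4 fell by 1.10, and NUDC by 1.03. FNIP2, a folliculin partner that binds HSP90, was the cochaperone that rose on both scales. It had spike-in scaled values of 112, 108 and 123 in the sgMETTL1.3 libraries, against 64.4, 70.5 and 67.2 in the sgNS libraries, a log2 fold change of 0.75. FNIP2, and DNAJB2 and BAG3 below, are named because so few genes rose, and HSF1 for its role, choices made after their values were seen.

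HSP70 cofactors and exchange factors, a list that includes HYOU1 and SIL1 of the endoplasmic reticulum, had 6 of 11 tested genes lower on the spike-in scale. As TPM 4 were lower and 2 higher, beside 26.6% and 24.4% of all genes. On the spike-in scale 49.3% of all genes were lower, a share near that of this list. BAG2, BAG4 and BAG1, BAG-domain cofactors of HSP70, had log2 fold changes of -0.86, -0.72 and -0.67. BAG3, a stress-induced exchange factor that HSF1 is known to control, had 45.3, 37.4 and 37.8 TPM in the sgMETTL1.3 libraries, against 25.2, 24.7 and 26.4 TPM in the sgNS libraries. All METTL1-guide libraries were above all controls, and BAG3 rose as TPM (log2 fold change 0.63), whereas 0.30 on the spike-in scale did not pass. Without sgMETTL1.3 replicate 1 these BAG3 values were 0.55, which passed, and 0.14, which did not. Other J proteins were listed as cytosolic, a location not tested here. Of these, 16 of 22 were lower and 1 higher on the spike-in scale, and 6 lower and 1 higher as TPM. Of all genes 26.6% were lower as TPM, near the share of this list, and 24.4% higher. On the spike-in scale 49.3% of all genes were lower and 6.4% higher. DNAJC6, the uncoating cofactor auxilin, had a log2 fold change of -1.23, DNAJA4 -0.99 and DNAJC14 -0.94. DNAJB2 rose with a log2 fold change of 0.78 on the spike-in scale and 1.10 as TPM.

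Of 20 other mitochondrial chaperones and proteases tested, from the matrix and from the inner membrane or intermembrane space, 15 fell and none rose on the spike-in scale, with a median log2 fold change of -0.59. As TPM 10 fell and 10 did not pass, with a median of -0.24. Of all genes 26.6% fell as TPM, and 49.3% on the spike-in scale. CLPB, a disaggregase, had spike-in scaled values of 19.2, 14.1 and 15.9 in the sgMETTL1.3 libraries, against 35.2, 36.1 and 36.1 in the sgNS libraries, or -1.09 on the log2 scale (limma adjusted p = 9.52e-06). TRAP1, the mitochondrial HSP90, had -0.87, and HSPA9, the mitochondrial HSP70 known as mortalin, -0.68.

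HSF factors and their regulators had 2 of 5 tested genes lower on the spike-in scale, HSBP1 (-0.46) and HSF2BP (-0.47), and none called as TPM. Across all genes, 49.3% fell and 6.4% rose with spike-in scaling, while 26.6% fell and 24.4% rose as TPM. HSF1 had spike-in scaled values of 77.2, 47.2 and 56.2 in the sgMETTL1.3 libraries, against 72.4, 76.4 and 80.2 in the sgNS libraries. Replicate 1 overlapped the controls and the other METTL1-guide libraries lay below them. With all libraries the log2 fold change of -0.37 did not pass (95% interval -0.73 to -0.01, limma adjusted p = 0.0775). Without sgMETTL1.3 replicate 1 it was -0.56 on the spike-in scale (limma adjusted p = 1.07e-06) and -0.15 as TPM (limma adjusted p = 0.00577), and HSF1 passed in both. On the spike-in scale that fit pooled the spread over most genes, so its p-value is smaller. HSF2 had -0.28 and did not pass.

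**Figure D4:**
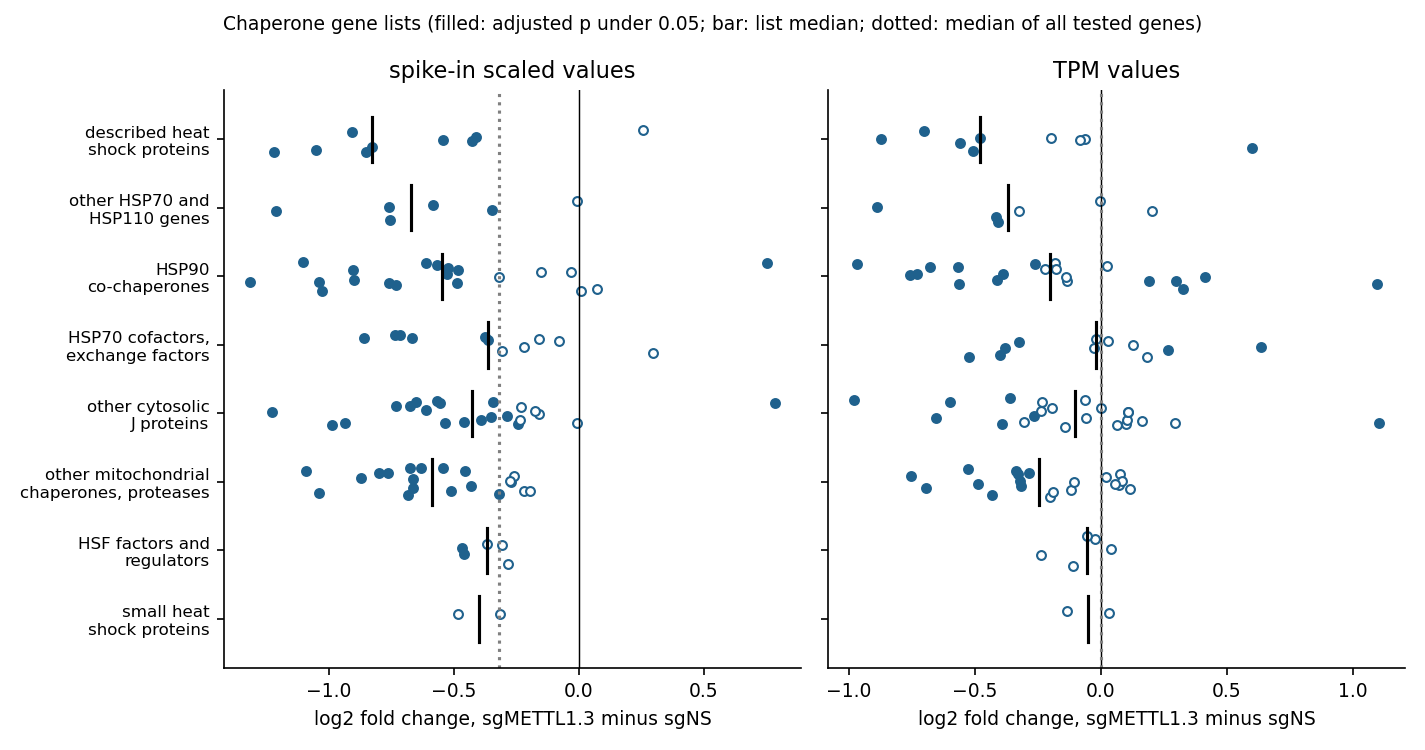
Log2 fold change, sgMETTL1.3 minus sgNS, of each tested gene in 8 chaperone lists, for spike-in scaled values (left) and TPM (right). Filled points have an adjusted p under 0.05, short bars are list medians and dotted lines the all-gene median. Among the described heat shock proteins (top row) the median was -0.83 on the spike-in scale and -0.48 as TPM, with HSPA1A alone right of 0.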

How the data were processed

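RNA-seq of 6 U-937 libraries was used. The authors used RSEM, STAR and cutadapt and name hg38 and GRCh38, per the submitters' processing notes. Their versions, the annotation and the strandedness of counting are not stated. The values themselves show that the deposited signal is TPM (transcripts normalized to each library's total) times a factor that gives the 92 ERCC rows the same sum in each library. Read depth is therefore unknown and no counting interval is given.

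Genes reaching 1 in 3 or more libraries (12449) entered limma 3.58.1 (R 4.3.3, trended and robust, no block) as log2(value + 1), with p-values adjusted by Benjamini-Hochberg over all of them and called at 0.05. Fold changes on that scale understate the change of low genes. TPM was recovered by rescaling each library's total, and 12404 genes then passed the filter. The GC correction took a lowess trend on GENCODE release 29 transcripts, with a value for 94.3% of tested genes.

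Ratios were tested with exact permutation tests (scipy 1.17.1). The planned HSP70 ratio was to add HSPA1B, which was not analysed here. All 10 members, the guide's target, up to 3 genes of smallest p per pathway list and copies or read-through rows were named by rule. The members, lists and alternatives were chosen with earlier results of these data known. Promoter sequences came from RefSeq.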

Additional observations from a re-analysis of the deposited data

How the results depend on the processing

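HSP90AA1, HSP90AB1, HSPH1, HSPD1 and HSPE1 kept their direction and their call under all 18 alternatives. HSPA8, DNAJB1 and DNAJA1 lost it under scalings not tied to the spike-ins, except DNAJA1 as TPM without sgMETTL1.3 replicate 1, and under quantile normalization HSPA8 (0.026) and DNAJB1 (0.020) turned to the other sign without passing. Median-of-ratios and quantile scaling centre all genes near 0 by construction. TPM fixes only the sum of each library, and its all-gene median was observed to be 0.00. Members higher numbered 1 and members lower 5 as TPM, with median-of-ratios and quantile scaling and as TPM with GC correction, and 1 member was higher as TPM once sgMETTL1.3 replicate 1 was left out. All genes higher numbered 3021, 3179, 2978, 3744 and 4231 under these 5, and all genes lower 3295, 3340, 3231, 4192 and 4313. The inducible, constitutive and mitochondrial medians were -0.29, -0.20 and -0.63 as TPM, -0.28, -0.18 and -0.61 with median of ratios, -0.20, -0.11 and -0.58 with quantiles, -0.26, -0.059 and -0.56 as TPM with GC correction, and -0.19, -0.082 and -0.53 as TPM when sgMETTL1.3 replicate 1 was left out. The constitutive median was -0.40 with GC correction alone. Requiring a mean of 5 or more left fewer genes to test, of which 510 were higher. Leaving out 1 library gave 0 to 1 members higher (1, HSPA1A, without sgMETTL1.3 replicate 2) and 8 lower, with 534 to 1037 genes higher and 4880 to 7538 lower in all. Libraries with the same replicate number did not deviate together (correlations from -0.04 to 0.00). The replicate block gave 814 genes higher and 5861 lower, with 8 members lower. Mean differences of log2 ratios within numbered pairs equal the unpaired ones by arithmetic in this balanced design, such as 0.67 for HSPA1A over HSPA8. They are therefore no check of the pairing. Fits without sgMETTL1.3 replicate 1, with the block and with the GC correction on the spike-in scale pooled the spread over most genes, so their p-values are smaller. The unknown read depth limits the precision of low rows such as HSPE1-MOB4.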

Other observations

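The small heat shock proteins were carried by HSPB1 (HSP27), which binds unfolded proteins without ATP. HSPB1 had spike-in scaled values of 972, 485 and 543 in the sgMETTL1.3 libraries, against 865, 921 and 882 in the sgNS libraries. Replicate 1 of sgMETTL1.3 was above all controls and the other METTL1-guide libraries were below them. The log2 fold change of -0.48 did not pass (95% interval -1.12 to 0.15, limma adjusted p = 0.165), while without that library it was -0.79 (limma adjusted p = 1.16e-12) and -0.37 as TPM (limma adjusted p = 8.27e-07). The spike-in scale fit without that library pooled the spread over most genes, so its p-value is smaller. HSPB11 had -0.31 and did not pass. CRYAB, a stress-induced member of this family, was listed at 0 in all sgNS libraries and between 0.318 and 0.757 in the sgMETTL1.3 libraries, below the filter. HSPA6, an HSP70 made almost only under severe stress, had 2.83, 1.58 and 2.40 in the sgMETTL1.3 libraries, against 3.81, 4.09 and 3.63 in the sgNS libraries, or -0.58 on the log2 scale (limma adjusted p = 0.00622), which did not pass as TPM (-0.33). Without sgMETTL1.3 replicate 1 HSPA6 passed as TPM, at -0.40 (limma adjusted p = 0.00965). Its near copy HSPA7 fell by 0.32 on the spike-in scale (limma adjusted p = 0.0487) and had 0.02 as TPM without passing. CRYAB and HSPA6 were picked for this paragraph after their values were seen.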
